A study of Arabidopsis thaliana with 15 samples.

Results

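Among 26677 clusters of transcription starts in Arabidopsis thaliana seedlings, 958 belonged to no gene value. They also lay away from clusters of the other strand that did belong to a gene value. The starts were mapped by cap analysis of gene expression (CAGE), which reads short tags from the capped 5′ ends of RNA, and neighbouring starts on 1 strand form a tag cluster. The tables give clusters and genes but no link between them, so a cluster was linked to a gene when a run of neighbouring clusters on 1 strand added up exactly to the gene's tag count in all 15 libraries. Each of the 18934 genes was matched by 1 run, which placed 23819 clusters in genes and left 2858 outside them, 146 of these on the organelle genomes. Of the 2712 remaining clusters on chromosomes 1 to 5, 438 lay head to head with a gene cluster of the other strand (midpoints within 600 bp, starts diverging) and 1316 more lay within 3000 bp in front of a gene cluster of the other strand that pointed at them. The 958 clusters left by this rule, called orphan clusters below, are the subject here. The rule used positions and the gene link and no difference between groups.

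The orphan clusters were measured in 5 groups of 3 libraries. At 10 min these were hen2-4 and wt, and at 30 min hen2-4, rrp4-2 and wt. All plants were of the ecotype Col-0 and 14 days old, and all had been given flg22 at 3.3 µM. flg22 is a peptide from the flagellin of bacteria. No plant went without it, so no untreated library enters here, and the times count from the treatment. Each library came from whole seedlings in a pool of 10, and the replicates were separate wells of 1 seed batch treated together. hen2-4 carries a T-DNA insertion in HEN2, the gene of an RNA helicase of the nuclear exosome, and rrp4-2 carries a point mutation in RRP4, the gene of a core subunit of the exosome, which weakens the protein without removing it. Each mutant is thus 1 line, and rrp4-2 was taken at 30 min alone.

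The RNA exosome is a complex that degrades RNA from its 3′ end. In the nucleus it trims ribosomal and small nuclear RNA precursors and removes short-lived transcripts, such as RNA from promoters read in the reverse direction, RNA from the strand opposite genes and RNA cut out of longer precursors. RNA helicases such as HEN2 in the nucleoplasm and MTR4 in the nucleolus bring substrates to it. When the exosome is impaired, transcripts that are made but quickly destroyed can become visible, so a start cluster that is low in wt and high in a mutant can mark a short-lived RNA. flg22 is recognized at the cell surface and sets off the early phase of plant immunity, in which many genes are switched on or off within minutes.

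The first sequences shown are those of orphan clusters whose upstream window held TCCCACATCG, the core of the upstream sequence element of plant U snRNA genes. These genes encode the small nuclear RNAs (snRNAs) of the spliceosome, and their promoters pair this element with a TATA-like box. The spacing of both elements differs between snRNA genes read by RNA polymerase II and those read by RNA polymerase III. The letters are those upstream of U1.9, a U1 snRNA gene, and were searched for on the cluster's strand after the windows of several clusters had been read, so its share is a description. It stood on the cluster's strand in the window of 150 bases (100 before the midpoint and 50 from it on) of 12 of the 958 orphan clusters (1.25%), 4 of the 438 head to head clusters (0.913%), 1 of the 1316 other opposite clusters (0.0760%) and 7 of 23560 nuclear gene clusters (0.0297%). Over all 26272 nuclear clusters, 24 windows held it (0.0914%). A TATAAA or TATATA followed the element in all 12, with 32 to 34 bases between in 7 of them and 23 to 26 bases between in the other 5. Each line gives the cluster, its window in TAIR10.1 with its strand, and the bases 5′ to 3′ from RefSeq, with the element and the TATA words in capitals. The first 6 lines are of the wider spacing and the last 5 of the narrower one. A window inside an annotated untranslated region was cut there or left out, which removed the line of U4atac.
at U1.9, chr5:9494574-9494673 -: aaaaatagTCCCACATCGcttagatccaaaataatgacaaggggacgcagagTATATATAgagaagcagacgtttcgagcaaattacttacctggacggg
opposite AT1G09937, chr1:30081043-30081142 +: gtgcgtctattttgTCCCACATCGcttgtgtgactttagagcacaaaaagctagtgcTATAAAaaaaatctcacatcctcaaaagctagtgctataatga
opposite AT4G07990, chr4:4824535-4824623 +: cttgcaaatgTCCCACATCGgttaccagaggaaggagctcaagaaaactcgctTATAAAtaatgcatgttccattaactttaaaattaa
near LURE1.2, chr5:17474932-17475031 +: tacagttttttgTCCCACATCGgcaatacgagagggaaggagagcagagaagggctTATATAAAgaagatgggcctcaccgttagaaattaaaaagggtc
at AT3G08565, chr3:20642773-20642872 +: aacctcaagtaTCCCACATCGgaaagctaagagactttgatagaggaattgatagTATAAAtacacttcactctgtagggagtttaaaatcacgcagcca
opposite AT4G04195, chr4:1114621-1114720 -: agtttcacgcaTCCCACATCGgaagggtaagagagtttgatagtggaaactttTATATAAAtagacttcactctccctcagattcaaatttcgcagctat
downstream of AT1G05063, chr1:4842551-4842650 +: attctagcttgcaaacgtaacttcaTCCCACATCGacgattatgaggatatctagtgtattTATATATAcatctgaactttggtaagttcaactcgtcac
at AT2G00670, chr2:8804429-8804528 +: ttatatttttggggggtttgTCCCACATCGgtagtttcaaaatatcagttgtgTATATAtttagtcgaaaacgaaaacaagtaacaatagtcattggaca
in AT4G04565, chr4:1472637-1472736 +: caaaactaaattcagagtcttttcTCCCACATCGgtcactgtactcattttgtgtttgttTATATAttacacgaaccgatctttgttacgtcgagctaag
at AT4G04595, chr4:1476196-1476295 +: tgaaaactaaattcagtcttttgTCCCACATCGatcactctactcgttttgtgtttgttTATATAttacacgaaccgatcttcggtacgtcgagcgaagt
opposite AT5G53740, chr5:21812007-21812106 -: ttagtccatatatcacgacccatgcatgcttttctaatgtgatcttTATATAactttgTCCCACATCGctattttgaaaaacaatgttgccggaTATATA
The windows of AT4G04565 and AT4G04595, on the same strand of chromosome 4, were near copies of each other. At AT5G53740 the element began 32 bases before the midpoint and the TATA word lay past it.

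The second set shows the windows of the clusters to which the results below return, chosen for their large differences between groups, with TATAAA and TATATA in capitals.
upstream of AT5G62720, chr5:25190985-25191134 +: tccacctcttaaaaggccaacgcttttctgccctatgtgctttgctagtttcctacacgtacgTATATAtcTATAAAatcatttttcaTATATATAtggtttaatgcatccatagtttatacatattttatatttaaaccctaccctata
opposite AT5G41140, chr5:16472443-16472546 -: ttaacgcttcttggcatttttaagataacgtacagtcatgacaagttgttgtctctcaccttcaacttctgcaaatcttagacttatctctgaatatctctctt
at AT1G75945, chr1:28515917-28515995 -: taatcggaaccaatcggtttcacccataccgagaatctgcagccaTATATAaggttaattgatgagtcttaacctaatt
upstream of MIR169a, chr3:4360163-4360312 -: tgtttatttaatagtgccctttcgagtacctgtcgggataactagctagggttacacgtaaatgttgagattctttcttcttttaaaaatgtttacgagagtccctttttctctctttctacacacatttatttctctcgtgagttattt
upstream of MIR319c, chr2:17028402-17028551 +: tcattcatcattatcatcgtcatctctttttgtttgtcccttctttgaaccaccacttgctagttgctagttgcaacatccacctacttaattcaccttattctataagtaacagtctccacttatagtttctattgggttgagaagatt
upstream of MIR160a, chr2:16339746-16339895 +: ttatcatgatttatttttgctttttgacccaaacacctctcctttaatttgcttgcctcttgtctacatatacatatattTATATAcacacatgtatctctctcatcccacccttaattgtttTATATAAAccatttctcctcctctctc
upstream of AT3G23123, chr3:8234611-8234760 -: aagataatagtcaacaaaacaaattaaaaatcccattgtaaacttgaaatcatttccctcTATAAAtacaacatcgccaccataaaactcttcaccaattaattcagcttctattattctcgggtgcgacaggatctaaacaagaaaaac
downstream of AT1G13610, chr1:4663432-4663581 -: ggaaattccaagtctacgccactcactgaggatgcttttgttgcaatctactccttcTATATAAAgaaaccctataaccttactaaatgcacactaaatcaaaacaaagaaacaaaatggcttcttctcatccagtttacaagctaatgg

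The 15 libraries held 14114750 to 25127030 tags, of which the orphan clusters took 0.648 to 1.05%. Levels are given as CPM, which are tags per 1000000 tags of the library after TMM scaling of the library totals. HEN2, the gene disrupted in hen2-4, had 4.05 to 10.1 CPM in the hen2-4 libraries and 34.9 to 57.1 CPM in the other libraries, and its groups did not overlap. RRP4 had 18.7 to 22.6 CPM in rrp4-2, against 14.2 to 22.6 CPM in wt at 30 min, and a point mutation need not change its level. Of 15 listed genes of the exosome and its cofactors, HEN2 was the only one called lower in hen2-4 at either time. SOP1, the gene of a zinc finger cofactor of the nuclear exosome, was the only one called higher in rrp4-2 (log2 1.22, SE 0.303, adjusted p 0.0330), and no listed gene was called with time. Of the markers for whole seedlings, 0 of 5 were above wt without overlap in a mutant, and some were below it. The shoot gene RBCS1A had 4489 to 6484 CPM in hen2-4 and 6315 to 8595 CPM in wt at 10 min, and 3877 to 5202 CPM in hen2-4, 4336 to 4489 CPM in rrp4-2 and 6285 to 7152 CPM in wt at 30 min. The root hair gene COBL9 had 1.44 to 2.18 CPM in hen2-4 and 2.46 to 2.88 CPM in wt at 10 min, and 0.998 to 1.11 CPM in hen2-4, 0.675 to 1.02 CPM in rrp4-2 and 1.24 to 1.97 CPM in wt at 30 min. EXPA7, also of root hairs, had 1.52 to 2.45 CPM in rrp4-2 and 3.38 to 5.76 CPM in wt at 30 min, and hen2-4 overlapped wt at both times. LHCB1.3, a shoot gene, and CASP1, of the root endodermis, overlapped in every comparison. The part of these differences in the results below was not tested. In such a mixture, fewer cells of a type and less RNA per cell cannot be told apart.

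By their place in the annotation, 307 of the 958 orphan clusters lay on the opposite strand of a gene, 210 in an exon of a protein-coding gene on its strand, 102 in an annotated noncoding RNA gene, 101 within 500 bp upstream of a gene on the same strand, 44 within 500 bp downstream of one, 11 in an intron, 8 in a pseudogene and 175 in none of these. The 307 on the opposite strand lay a median of 2386 bp from the gene's start, and 193 of these genes had no value in the gene table. The lower quartile of this distance was 728.5 bp, and 3 of the 307 lay within 100 bp. The rule measured no distance to genes without a value, so annotated starts of such genes can lie close. The 210 in exons lay near annotated 5′ ends, a median of 88.5 bp away with 115 of them within 100 bp, and 145 were in genes without a value in the gene table, that is, genes that the table does not list. The 102 in noncoding RNA genes comprised 59 in miscellaneous RNAs, 40 in long noncoding RNAs, 2 in snRNAs and 1 in a small nucleolar RNA. The clusters joined into 887 loci when those within 500 bp on 1 strand were merged.

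The orphan clusters were narrow. Their median width was 56 bp, against 66.5 bp for head to head clusters, 76 bp for the other opposite clusters and 120 bp for gene clusters. The median was 9 bp for the 175 intergenic clusters and 105 bp for the 210 in exons. TATAAA or TATATA, searched on the cluster's strand in the 150-base window, stood in 32.6% of orphan windows, 26.3% of head to head windows, 23.1% of the other opposite windows and 29.1% of gene windows, and in 28.9% of all nuclear windows. Within the orphan clusters the share was 44.6% upstream of genes, 42.2% in noncoding RNA genes, 37.1% in intergenic clusters and 26.4% opposite genes. The median GC content of the windows was 35.3%, against 36.0% for both other non-gene classes and 37.3% for gene clusters. No test was made of these features.

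Many orphan clusters were higher in both exosome mutants and very few were lower. A cluster counts as called when its adjusted p is at most 0.05 in the edgeR fit over all 26504 clusters tested and its log2 fold change is at least 1 in size. At 10 min 259 of the 936 orphan clusters tested were called higher in hen2-4 (27.7%, with 5.11% of all clusters tested), and 0 were called lower (0.268% of all clusters tested). At an unadjusted p under 0.05, 14 were lower. At 30 min 228 were called higher in hen2-4 (24.4%, with 4.75% of all clusters) and 3 lower (0.313% of all clusters), and in rrp4-2 292 were called higher (31.2%, with 6.59% of all clusters) and 9 lower (1.24% of all clusters). The median log2 fold changes of the 936 were 0.53 for hen2-4 at 10 min, 0.47 for hen2-4 at 30 min and 0.65 for rrp4-2, beside -0.02, -0.04 and -0.025 over all clusters tested. With groups that had no tag in any library set to a floor of 3 tags, the medians were 0.53, 0.47 and 0.65. The counts were proportionally lower than in the other non-gene classes, with no test between classes, where 190 of 429 head to head clusters and 524 of 1281 other opposite clusters were called higher in hen2-4 at 10 min, and 233 of 429 and 647 of 1281 in rrp4-2. Of 23712 gene clusters tested, 382 were called higher in hen2-4 at 10 min and 574 in rrp4-2.

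By the levels alone, all 3 mutant libraries were above all 3 wt libraries in 413 orphan clusters for hen2-4 at 10 min (44.1%, with 13.1% of all clusters), 370 for hen2-4 at 30 min (39.5%, with 11.4%) and 390 for rrp4-2 (41.7%, with 14.2%). All 3 were below in 28 (2.99%, with 10.7% of all clusters), 39 (4.17%, with 7.01%) and 48 (5.13%, with 9.38%) orphan clusters in the same comparisons.

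These counts need 1 limit. The authors kept clusters with at least 1 TPM in at least 3 libraries, so passing through mutant libraries alone favours clusters that are higher there. Of the 958, 458 reached that level in at least 3 of the 6 wt libraries, 322 reached it through the mutant libraries and 178 in neither set. Over wt and mutant libraries together, 818 reached it in at least 3 of the 15. The remainder did not reach it in the libraries used here, and 9 columns of each table were not used. Of the 458, 44 were called higher in hen2-4 at 10 min (9.61%), 44 in hen2-4 at 30 min (9.61%) and 65 in rrp4-2 (14.2%), beside 1.66%, 1.61% and 2.74% of all 21574 clusters that reached the same wt level. Their median log2 fold changes were 0.12, -0.003 and 0.10, beside -0.06, -0.07 and -0.06 over those 21574. A filter on wt levels in its turn favours clusters that are high in wt. The filter on low counts in the fit removed 22 of the 958.

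The clusters on either side of the distances of the rule are given with no test. Of 45 clusters just outside it, with a head to head distance of 405.5 to 598.5 bp, 19 were called higher in hen2-4 at 10 min, 19 in hen2-4 at 30 min and 23 in rrp4-2 (median log2 1.39, 1.47 and 1.27), and of 62 orphan clusters at 604 to 991.5 bp, 21, 22 and 22 were (medians 1.21, 0.73 and 0.97). Of 174 tested clusters with a gene cluster pointing at them from 2004 to 2998.5 bp, 78, 76 and 89 were called higher in these comparisons (medians 1.56, 1.78 and 1.81), and of 199 orphan clusters at 3002 to 4982 bp, 75, 71 and 83 were (medians 1.2, 1.07 and 1.27). Of the 737 orphan clusters with no such gene cluster within 5000 bp, 184, 157 and 209 were called higher (medians 0.47, 0.36 and 0.55).

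The position of an orphan cluster went with how often it was called. Of 300 tested on the opposite strand of a gene, 124 were called higher in hen2-4 at 10 min, 127 in hen2-4 at 30 min and 147 in rrp4-2, and the median log2 fold changes were 1.52, 1.53 and 1.63. Of 98 in noncoding RNA genes, 34, 27 and 38 were called higher in these comparisons. Of 209 in coding exons, 24, 12 and 21 were, with medians of 0.18, 0.05 and 0.16. By the share called, the clusters upstream of a gene on the same strand (24 of 99 in rrp4-2), those downstream (13 of 43) and the intergenic ones (43 of 168) lay between opposite and exon clusters. By the medians, downstream and intergenic clusters were below those in coding exons in rrp4-2 (0.13 and 0.14), and above them in hen2-4 at both times. Of 11 in introns, 2, 1 and 5 were called higher, with medians of 0.65, 0.91 and 1.28. Among the opposite clusters, those of genes with a value in the gene table had medians of 2.01, 1.82 and 1.95 over 112 tested clusters, and those of genes without one 1.18, 1.27 and 1.46 over 188 tested clusters. No test was made between positions. These counts and medians include the clusters that passed the authors' filter through mutant libraries alone. They were not made separately for the 458 that reached 1 TPM in 3 wt libraries. The mean CPM also differed by position, with a median of 1.03 opposite genes and 2.53 in coding exons. The part of the filter and of the levels in these differences was not tested.

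**Figure D1:**
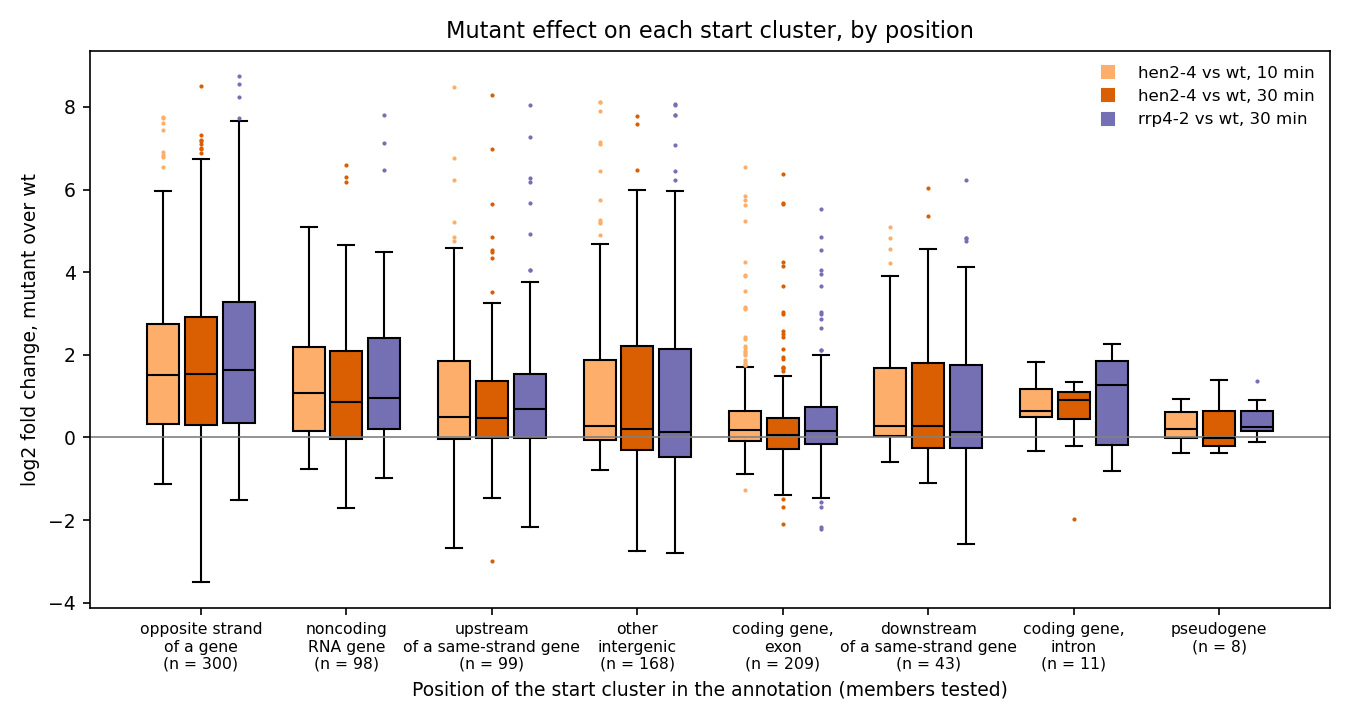
Log2 fold change of each tested orphan cluster over wt, for hen2-4 at 10 min, hen2-4 at 30 min and rrp4-2, by position in the annotation. Boxes span the quartiles with the median as a line, whiskers reach 1.5 times the box and dots are clusters beyond. Clusters that passed the authors' filter through mutant libraries alone are included. The boxes opposite genes sit highest, with medians of 1.52, 1.53 and 1.63, and those in coding exons are near 0.

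Among orphan clusters with a mean of at least 1 CPM, the largest rise at 10 min was in a cluster 72 bp wide at chr5:25191050-25191121 on the + strand, 316.5 bp upstream of AT5G62720, whose window is shown above with 3 runs of TATA words. It had 12.7, 13.8 and 14.7 CPM in hen2-4 at 10 min, against 0.0400, 0.0455 and 0 CPM in wt at 10 min. At 30 min it had 6.59, 13.5 and 2.85 CPM in hen2-4 and 4.82, 4.12 and 10.3 CPM in rrp4-2, against 0, 0 and 0.0555 CPM in wt. All mutant libraries were far above all wt libraries. Clusters ranked by a rise or fall had to have groups that did not overlap in that comparison, so such separation is a description. Since wt held 2 tags at 10 min and 1 at 30 min, the size is given as a ratio of pooled tags with its 95% counting interval, which was 432 (119 to 3570) for hen2-4 at 10 min, 427 (76.2 to 16898) for hen2-4 at 30 min and 352 (62.7 to 13923) for rrp4-2. Such intervals and floors cover counting error alone, as tags are reads and not single molecules. All 3 differences passed the edgeR test (adjusted p 4.75e-06, 1.24e-05 and 1.36e-05). A second cluster 386 bp upstream of the same gene, at chr5:25191003-25191029, had 1.66, 2.79 and 2.68 CPM in hen2-4 at 10 min, against 0.0400, 0 and 0 CPM in wt. The gene itself did not show this pattern, with 422 ± 70.4 CPM in hen2-4 and 669 ± 65.9 CPM in wt at 10 min (SD, n = 3 each).

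On the opposite strand of AT5G41140, 4165.5 bp from the gene's start, the cluster at chr5:16472397-16472588 on the - strand was high in the mutants and moved with time. It had 28.7, 11.0 and 8.69 CPM in hen2-4 at 10 min, against 0.0801, 0.455 and 0.453 CPM in wt (log2 5.66, SE 0.574, adjusted p 2.96e-05). At 30 min it had 2.40, 2.56 and 1.87 CPM in hen2-4 and 2.79, 1.95 and 3.33 CPM in rrp4-2, and no tag in any wt library. Against a floor of 3 tags over the wt group it was at least 41.5-fold higher in hen2-4 and at least 49.1-fold higher in rrp4-2 (adjusted p 0.000274 and 0.000125). Its printed window held no TATA word.

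Other clusters behaved alike. The intergenic cluster at chr3:10501079-10501194 on the - strand had 1.06, 0.989 and 1.51 CPM in hen2-4 and 1.07, 1.45 and 1.69 CPM in rrp4-2 at 30 min and no tag in wt, which makes it at least 22.1-fold and at least 25.9-fold higher. The cluster opposite AT3G29637 (chr3:11471113-11471253, + strand) had 5.39, 4.72 and 3.82 CPM in hen2-4 at 10 min, against 0.120, 0.0455 and 0.0647 CPM in wt (log2 5.76, SE 0.553, adjusted p 7.69e-06). Lying 48 bp downstream of AT2G46520, the cluster at chr2:19100402-19100440 on the + strand had 1.96, 1.78 and 2.23 CPM in hen2-4 at 10 min, against 0.160, 0.0910 and 0.129 CPM in wt (log2 3.90, SE 0.438, adjusted p 3.43e-05). In each of these 3 the mutant libraries did not overlap wt. An intergenic cluster near FUM2, the gene of a cytosolic fumarase, at chr5:20728287-20728405 had 7.52, 1.68 and 2.12 CPM in rrp4-2 at 30 min, against 0.104, 0 and 0.0555 CPM in wt, a ratio of pooled tags of 67.3 (95% counting interval 22.7 to 329). Its first rrp4-2 library was above the other rrp4-2 libraries, and all of them were above wt.

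Most of the tested orphan clusters with the U snRNA element were called higher in the mutants. The 12 were 4 to 33 bp wide, with a median of 10.5 bp. Of the 11 tested, 8 were called higher in hen2-4 at 10 min, 7 in hen2-4 at 30 min and 8 in rrp4-2, with median log2 fold changes of 2.74, 3.16 and 3.33. In the same comparisons 27.7%, 24.4% and 31.2% of all tested orphan clusters were called higher, and 5.11%, 4.75% and 6.59% of all clusters. No such count was made for clusters of the other classes that hold the element. The list was made after values were seen, so these counts are a description. The cluster with the highest mean lay at chr4:9096360-9096384 on the + strand, 3 bp upstream of the annotated start of U4atac, an snRNA of the minor spliceosome. It had 17.8, 11.3 and 25.4 CPM in hen2-4 at 10 min, against 0.841, 0.592 and 0.518 CPM in wt (log2 4.76, SE 0.418, adjusted p 3.30e-06). At 30 min it had 13.9, 12.3 and 26.4 CPM in hen2-4 (log2 4.54, SE 0.416) and 15.9, 11.4 and 10.1 CPM in rrp4-2 (log2 4.05, SE 0.413), against 0.415, 0.842 and 0.998 CPM in wt. The element began 85 bases before its midpoint and the TATA word 42 bases before it.

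The cluster at chr5:9494578-9494588 on the - strand started 11 bp inside U1.9, a gene of the U1 snRNA, which recognizes 5′ splice sites. It had 2.37, 3.18 and 7.42 CPM in hen2-4 at 10 min, against 0.240, 0.228 and 0.194 CPM in wt (log2 4.24, SE 0.468, adjusted p 2.80e-05), and log2 fold changes of 3.69 in hen2-4 and 3.33 in rrp4-2 at 30 min. The next such clusters carried no annotation on their strand. That opposite AT1G09937, 125 bp from the start of this gene, had 13.2, 13.3 and 14.0 CPM in rrp4-2 at 30 min, against 0.675, 0.393 and 0.998 CPM in wt (log2 4.28, SE 0.412, adjusted p 4.21e-06). That opposite AT4G07990, which lies 4542 bp from the start of this gene, had 18.4, 10.5 and 13.9 CPM in rrp4-2, against 0.104, 0.0562 and 0.499 CPM in wt (log2 5.99, SE 0.644, adjusted p 1.24e-05). In all 4 clusters every mutant library was above every wt library of the same time.

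Clusters of the narrower spacing were called as well. That downstream of AT1G05063 and that at AT2G00670 had log2 fold changes of 3.50 and 2.44 in rrp4-2. That opposite AT5G53740 had 2.08, 2.17 and 1.93 CPM in rrp4-2 at 30 min, against 0.156, 0.168 and 0.111 CPM in wt (log2 3.77, SE 0.419). Its TATA word lay past the midpoint, so the 2 words do not both stand upstream of its starts. The near copies did not pass the test. AT4G04565 had 5.93, 4.91 and 7.01 CPM in hen2-4 at 10 min, against 4.77, 4.78 and 0.906 CPM in wt (log2 0.75, SE 0.460), and AT4G04595 had 5.04, 6.40 and 5.87 CPM, against 3.68, 2.28 and 0.388 CPM (log2 1.40, SE 0.466, adjusted p 0.101). In both, every hen2-4 library at 10 min was above every wt library, though the test was not passed. At 30 min AT4G04565 had 4.79, 3.55 and 2.14 CPM in hen2-4 and 3.50, 3.21 and 1.88 CPM in rrp4-2, against 3.38, 7.75 and 5.38 CPM in wt, and both mutants overlapped wt. AT4G04595 had 3.66, 3.91 and 5.43 CPM in hen2-4 and 2.34, 2.40 and 2.65 CPM in rrp4-2, against 1.25, 3.15 and 2.22 CPM in wt, where only rrp4-2 overlapped wt. AT3G08565 also missed it, with log2 1.62 (SE 0.905) in hen2-4 at 10 min and 0 CPM in 1 hen2-4 and 1 rrp4-2 library at 30 min. The cluster near LURE1.2, the gene of a pollen tube attractant, was called higher in hen2-4 at 10 min (log2 2.73) and in rrp4-2 (log2 1.52, adjusted p 0.0450, lost on leaving out any of 10 libraries), but not in hen2-4 at 30 min (log2 1.23, adjusted p 0.171). The cluster opposite AT4G04195 was removed by the filter, with 0.433 to 1.18 CPM in hen2-4 and 0 to 0.129 CPM in wt at 10 min. Another U1 gene, U1.10, held a cluster of 3 bp without the element that the filter removed, with 0.296, 0.289 and 1.27 CPM in hen2-4 at 10 min, against 0.0400, 0.0455 and 0 CPM in wt.

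**Figure D2:**
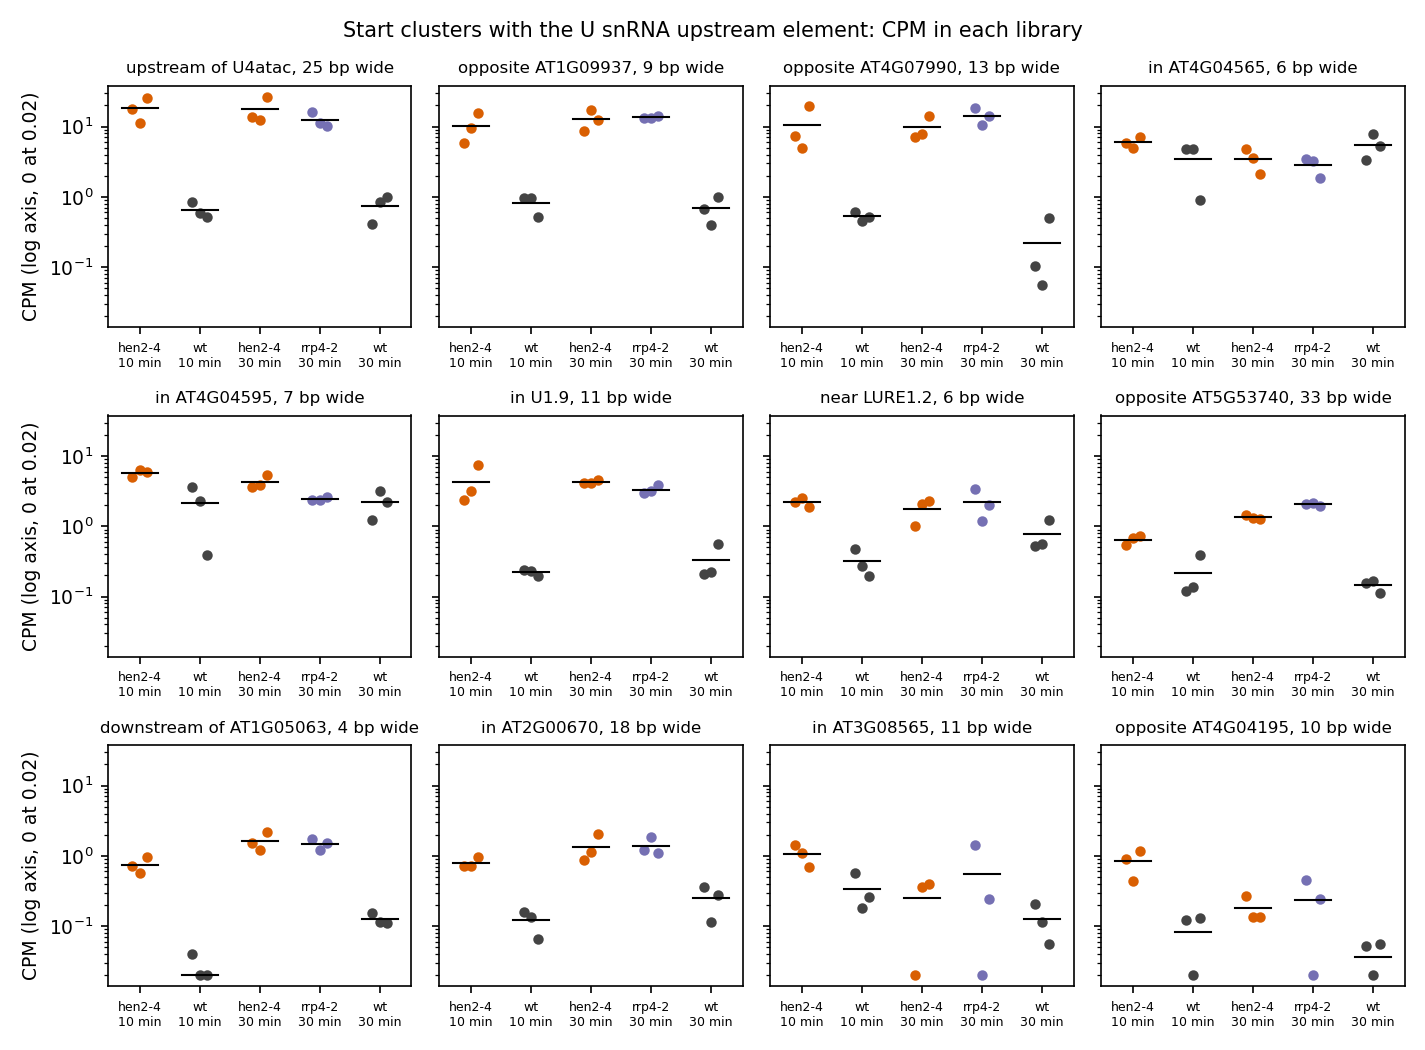
CPM on a log axis in each library (dots, 0 drawn at 0.02) with the group mean (line) for the 12 orphan clusters with the U snRNA upstream element, ordered by mean CPM. Groups run hen2-4 10 min, wt 10 min, hen2-4 30 min, rrp4-2 30 min and wt 30 min. In U4atac all 9 mutant libraries are at 10.1 CPM or more and the 6 wt libraries are below 1 CPM, while for the near copies AT4G04565 and AT4G04595 rrp4-2 and wt overlap at 30 min.

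Orphan clusters also stood upstream of microRNA genes. A microRNA is cut from a precursor whose primary transcript can start well upstream of the annotated hairpin, and the remainder of that transcript is broken down. Within 2000 bp upstream of 15 annotated precursors lay 18 orphan clusters, a list made after values were seen. Of the 18, 9 were called higher in hen2-4 at 10 min, 4 in hen2-4 at 30 min and 4 in rrp4-2, with median log2 fold changes of 1.85, 1.12 and 1.01, and 0 were called lower. In the same comparisons 27.7%, 24.4% and 31.2% of all tested orphan clusters were called higher, and 5.11%, 4.75% and 6.59% of all clusters. Those of MIR169a and MIR4221 were called in all 3 comparisons. The 7 called in none stood upstream of MIR4228 (a pair of clusters), MIR159b, MIR5637, MIR5642a, MIR8167f and MIR822. The largest log2 fold change among those called in all 3 comparisons was that of MIR169a, whose microRNA family targets NF-YA transcription factors, at chr3:4360148-4360277 on the - strand, 993.5 bp from the precursor. It had 9.36, 2.70 and 3.46 CPM in hen2-4 at 10 min, against 0.160, 0.501 and 0.0647 CPM in wt (log2 4.31, SE 0.668, adjusted p 0.000536). At 30 min it had 0.798, 1.17 and 2.14 CPM in hen2-4 and 0.965, 0.317 and 1.25 CPM in rrp4-2, against 0.0519, 0.112 and 0.0555 CPM in wt (log2 4.14 and 3.42, adjusted p 0.00588 and 0.0211). The groups did not overlap at either time, and the rrp4-2 call was lost when rrp4-2 replicate 1 or 3 or wt 30 min replicate 1 or 3 was left out. With limma voom and with limma-trend on log2(TPM + 1), neither 30 min call was made.

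The cluster 983 bp upstream of MIR4221, inside the long noncoding RNA AT4G06225, had 32.2, 22.6 and 18.7 CPM in hen2-4 at 10 min, against 4.65, 7.10 and 4.40 CPM in wt (log2 2.18, SE 0.303, adjusted p 0.000208), and was also called in hen2-4 and rrp4-2 at 30 min (log2 2.14 and 1.55, adjusted p 0.000425 and 0.00432). The cluster 671.5 bp upstream of MIR842 had 5.93, 4.53 and 3.55 CPM in hen2-4 at 10 min, against 1.2, 0.592 and 0.518 CPM in wt (log2 2.55, SE 0.454), and that 1077 bp upstream of MIR406 had 2.73, 1.01 and 0.819 CPM and no tag in wt, at least 29.6-fold higher. For MIR319c, of the family that targets TCP factors of leaf growth, the cluster 1199 bp away had 24.4, 2.74 and 2.82 CPM in hen2-4 at 10 min, against 0.641, 1.64 and 0.841 CPM in wt. Its first hen2-4 library was far above the other libraries, and the call (adjusted p 0.0129) was lost without it and without wt 10 min replicate 1 or 3. The calls 432.5 bp upstream of MIR160a, whose microRNA targets auxin response factors (log2 2.98, adjusted p 0.0103), 1535.5 bp upstream of MIR319c (log2 3.67) and 648 bp upstream of MIR779 (log2 1.52) were likewise lost without hen2-4 10 min replicate 1 and without wt 10 min replicate 1, and that of MIR779 on leaving out any of 8 libraries. At 30 min none of the clusters of MIR842, MIR160a (at 432.5 bp), MIR319c (at 1535.5 bp) and MIR779 was called in either mutant. For hen2-4 and rrp4-2 the log2 fold changes were 1.32 and 0.64 at MIR842 (adjusted p 0.125 and 0.456), 0.60 and 0.39 at MIR160a (0.726 and 0.777), 1.79 and 2.13 at MIR319c (0.438 and 0.214) and 1.19 and 0.94 at MIR779 (0.209 and 0.259). The MIR319c cluster 1199 bp away was called in neither mutant at 30 min (adjusted p 0.129 and 0.0554). The MIR406 cluster was called in rrp4-2 (adjusted p 0.00758) but not in hen2-4 at 30 min (0.0713). The cluster 693 bp upstream of MIR447a was called in rrp4-2 (13.4, 12.4 and 8.63 CPM in rrp4-2, against 4.88, 5.50 and 5.77 CPM in wt, log2 1.09), a call lost without rrp4-2 replicate 1. The second MIR160a cluster, 985.5 bp away, was called in hen2-4 at both times (log2 2.37 at 10 min and 3.31 at 30 min). Its 10 min call was lost on leaving out any of 8 libraries, hen2-4 10 min replicate 1 among them. Its 30 min call was lost without hen2-4 30 min replicate 3 or wt 30 min replicate 1. That 1380 bp upstream of MIR861 was called in hen2-4 at 30 min alone (log2 3.15, adjusted p 0.0398), a call lost on leaving out any of 8 libraries. The cluster 419 bp upstream of MIR159b, called in none, had log2 fold changes of 1.52, 1.06 and 1.56.

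hen2-4 at 10 min and rrp4-2 at 30 min were each compared with wt of their own time and share no library. Of the 259 called higher in hen2-4 and the 292 called higher in rrp4-2, 198 were called in both (76.4% of the first list and 67.8% of the second), and 3.91% of all clusters tested were called in both. Over the 936 clusters the log2 fold changes had a Pearson correlation of 0.77 and a Spearman correlation of 0.74, given as a description, since neighbouring clusters share loci and levels set the precision of both. The 322 clusters that reached the level of the authors' filter through mutant libraries alone were favoured to be higher there, and this enters both values. Over the 458 that reached it in wt, 44 were called higher in hen2-4 at 10 min and 65 in rrp4-2, 31 of them in both (70.5% of the first list and 47.7% of the second, with 1.11% of all clusters at that wt level), and the correlations were 0.58 (Pearson) and 0.48 (Spearman). Between the mutants at 30 min, 1 cluster was called higher in rrp4-2 and 1 lower, beside 0.155% and 0.102% of all clusters. At an unadjusted p under 0.05 were 126 of the 936 orphan clusters tested, beside 3211 of all 26504 clusters tested.

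**Figure D3:**
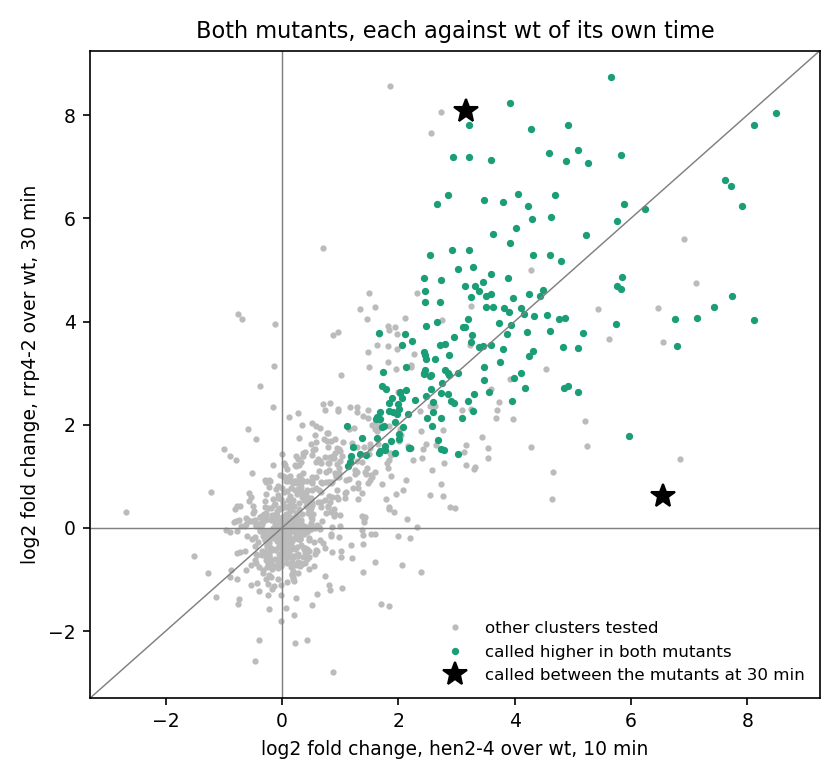
Log2 fold change of the 936 tested orphan clusters in hen2-4 over wt at 10 min (x axis) and in rrp4-2 over wt at 30 min (y axis). Green dots are the 198 clusters called higher in both, stars the 2 clusters called between the mutants at 30 min, and the diagonal marks equal values. Most clusters lie near the diagonal, and 1 star is far to the right of it.

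The cluster called lower in rrp4-2 than in hen2-4 lay 21 bp inside AT1G75945, a protein-coding gene, at chr1:28515870-28515920 on the - strand. It had 1.37, 0.951 and 0.145 CPM in rrp4-2, against 40.1, 45.8 and 47.5 CPM in hen2-4 at 30 min (log2 -5.75, SE 0.589, adjusted p 0.000195). It had 38.2, 33.7 and 41.4 CPM in hen2-4 at 10 min, against 0.400, 0.592 and 0.129 CPM in wt at 10 min, and wt at 30 min had 0.104, 0.112 and 1.39 CPM. The 6 hen2-4 libraries were all above 33 CPM and the other 9 below 1.40 CPM. hen2-4 is 1 T-DNA line, so an effect of HEN2 and a difference carried by the line cannot be told apart. The cluster called higher in rrp4-2 was intergenic, at chr1:21341898-21341910 on the + strand near AT1G57620. It had 1.78, 1.99 and 1.3 CPM in rrp4-2, against 0.0665, 0.135 and 0 CPM in hen2-4 (log2 4.53, SE 0.723, adjusted p 0.0252) and no tag in wt. This call was lost when any 1 of the 6 libraries compared was left out, and against wt the cluster was at least 31.1-fold higher.

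The falls called had log2 fold changes of -3.50 to -1.39 in the 3 clusters lower in hen2-4 at 30 min and -2.18 to -1.02 in the 9 lower in rrp4-2. The intergenic cluster at chr5:14012660-14012662 on the - strand, near PHYC, the gene of a phytochrome, had 1.22, 1.09 and 2.17 CPM in rrp4-2 at 30 min, against 6.02, 6.07 and 3.66 CPM in wt (log2 -1.81, SE 0.325, adjusted p 0.00138), and it was lower in hen2-4 at 30 min as well (2.46, 1.71 and 1.87 CPM, log2 -1.39, adjusted p 0.0131), a call lost without hen2-4 30 min replicate 2 or 3 or wt 30 min replicate 1. At 10 min it had 5.45, 5.10 and 2.87 CPM in hen2-4, against 5.13, 3.87 and 4.47 CPM in wt. The cluster in an exon of AT3G01516 had 0.508, 0.724 and 0.627 CPM in rrp4-2, against 1.77, 2.98 and 1.28 CPM in wt (log2 -1.68, SE 0.412, adjusted p 0.0148), a call lost without rrp4-2 replicate 1 or 3 or wt 30 min replicate 2. The cluster 24.5 bp inside FDM2, a gene of RNA-directed DNA methylation, had 0.399, 0.674 and 0.668 CPM in hen2-4 at 30 min, against 1.35, 1.12 and 2.22 CPM in wt (log2 -1.39, adjusted p 0.0461), a call that 12 of the 15 single-library omissions removed. Opposite AT5G27950, the cluster at chr5:9987613-9987736 on the - strand had 0, 0 and 0.0445 CPM in hen2-4 at 30 min, against 0.312, 0.225 and 0.222 CPM in wt. These are 1 tag in hen2-4 and 14 tags in wt, a ratio of wt over hen2-4 of 15.2 (95% counting interval 2.31 to 642), and the call (adjusted p 0.0498) was lost in 13 of the 15 omissions. The cluster at chr4:1875428-1875448 in an exon of AT4G03940 had 0.660, 0.226 and 0.386 CPM in rrp4-2, against 1.25, 2.81 and 1.72 CPM in wt (log2 -2.18, adjusted p 0.00839), and this call held in all 15 omissions.

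Between 30 and 10 min after flg22, orphan clusters moved in both directions. In hen2-4, 82 were called higher at 30 min (8.76%, with 7.29% of all clusters) and 117 lower (12.5%, with 6.32% of all clusters). In wt, 79 were called higher (8.44%, with 8.25% of all clusters) and 69 lower (7.37%, with 4.36% of all clusters). With library totals alone in place of TMM, the counts were 66 higher and 178 lower in hen2-4 and 63 higher and 116 lower in wt, and the median log2 fold change of all clusters tested was -0.288 in hen2-4 and -0.278 in wt, beside -0.0182 and -0.0207 with TMM. For rrp4-2 over wt it was 0.117 with library totals alone and -0.025 with TMM. The shares called higher were near those of all clusters. Of head to head and other opposite clusters, 12.4% and 12.3% were called lower in hen2-4, and 11.0% and 10.1% in wt. By the levels alone, all 30 min libraries were above all 10 min libraries in 148 orphan clusters in hen2-4 (15.8%, with 21.3% of all clusters) and 121 in wt (12.9%, with 16.1%). They were below in 273 in hen2-4 (29.2%, with 20.3% of all clusters) and 167 in wt (17.8%, with 15.9%). The 2 time comparisons share no library, and 58 clusters were called higher in both (70.7% of the hen2-4 list and 73.4% of the wt list) and 34 lower in both (29.1% and 49.3%), with 0 called in opposite directions. The test of whether the time change differed between hen2-4 and wt called 0 orphan clusters in edgeR, DESeq2 and limma voom, beside 0.00377% of all clusters. At an unadjusted p under 0.05 in edgeR were 74 of the 936 orphan clusters tested, beside 1505 of all 26504 clusters tested.

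Of the clusters with a mean of at least 1 CPM that rose, the one with the largest log2 fold change in both genotypes was at chr5:9403768-9403896 on the + strand, opposite AT5G26760 and 3474 bp from its start. It had 10.4, 6.56 and 10.1 CPM in hen2-4 at 30 min, against 0, 0.144 and 0.0910 CPM at 10 min (log2 6.65, SE 0.511, adjusted p 2.87e-07). In wt it had 5.45, 4.27 and 9.65 CPM at 30 min, against 0, 0.0455 and 0.0647 CPM at 10 min, a ratio of pooled tags of 201 (95% counting interval 55.2 to 1666, adjusted p 2.42e-07). The groups were far apart in both genotypes. The gene AT5G26760 itself had 6.73 ± 0.797 CPM at 30 min and 7.24 ± 0.984 CPM at 10 min in hen2-4, and 7.55 ± 1.24 CPM at 30 min and 8.80 ± 1.08 CPM at 10 min in wt (SD, n = 3 each).

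The cluster at chr3:8234654-8234667 on the - strand, 101.5 bp upstream of AT3G23123, whose window is shown above with a TATA word 40 bases before the midpoint, had 20.6, 20.8 and 15.2 CPM in hen2-4 at 30 min, against 0.119, 0.289 and 2.32 CPM at 10 min (log2 4.30, SE 0.616, adjusted p 0.000136). In wt it had 17.2, 9.49 and 17.9 CPM at 30 min, against 0.280, 0.728 and 0.0647 CPM at 10 min (log2 5.27, SE 0.688, adjusted p 4.45e-05). The cluster 48 bp inside AT3G21305, a gene without a value in the gene table, had 37.8, 28.0 and 79.3 CPM in wt at 30 min, against 2.00, 1.18 and 1.23 CPM at 10 min (log2 5.01, SE 0.438). In both clusters all 30 min libraries were above all 10 min libraries, which was a condition for naming them by rank. The cluster opposite EICBP.B, also known as CAMTA1, the gene of a calmodulin-binding transcription activator, had 2.73, 2.61 and 2.09 CPM in hen2-4 at 30 min, against 0.119, 0 and 0.136 CPM at 10 min (log2 4.78, SE 0.593, adjusted p 3.22e-05). At 30 min it was higher in rrp4-2 (3.96, 2.94 and 2.99 CPM) than in wt (0.623, 0.337 and 0.887 CPM, log2 2.41, adjusted p 0.00204). EICBP.B itself had 22.7 ± 0.895 CPM at 30 min and 22.4 ± 3.57 CPM at 10 min in hen2-4. The cluster opposite AT5G23490 (chr5:7923538-7923584, - strand) had 0.623, 0.618 and 1.61 CPM in wt at 30 min and no tag in wt at 10 min, at least 19.6-fold higher. A cluster of 1 bp, 139 bp upstream of ABCG17, the gene of an ABC transporter, had 2.2, 2.88 and 3.61 CPM in hen2-4 at 30 min, against 0.0593, 0.241 and 0.182 CPM at 10 min (log2 4.08, SE 0.596).

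Of the clusters that fell, that at chr1:4663467-4663496 on the - strand, 349.5 bp downstream of AT1G13610, had 0.665, 3.50 and 0.490 CPM in hen2-4 at 30 min, against 66.9, 20.4 and 10.2 CPM at 10 min (log2 -4.34, SE 0.934, adjusted p 0.00391). In wt it had 1.04, 0.505 and 0.555 CPM at 30 min, against 13.6, 53.5 and 14.3 CPM at 10 min (log2 -5.26, SE 1.02, adjusted p 0.00166). The times did not overlap in either genotype, though the libraries at 10 min differed several-fold. The cluster opposite AT4G09150 (chr4:5833402-5833514, - strand) had 0.333, 0.315 and 0.579 CPM in hen2-4 at 30 min, against 4.74, 3.61 and 3.09 CPM at 10 min (log2 -3.18, SE 0.468), and the gene AT4G09150 itself had 169 ± 33.4 CPM at 30 min and 85.0 ± 11.2 CPM at 10 min. The cluster 20 bp upstream of the long noncoding RNA AT1G05913 had 0.798, 1.26 and 1.16 CPM in hen2-4 at 30 min, against 60.8, 5.15 and 3.82 CPM at 10 min, where the first library alone was above 6 CPM. The cluster 1199 bp upstream of MIR319c had 0.104, 0 and 0 CPM in wt at 30 min, against 0.641, 1.64 and 0.841 CPM at 10 min, a ratio of pooled tags of 28.7 (7.63 to 242), and this call was lost without wt 10 min replicate 2 or wt 30 min replicate 2 or 3. The cluster opposite AT5G41140 described above had no tag in wt at 30 min, at least 5.59-fold lower than at 10 min, a call lost on leaving out 5 of the 6 libraries compared.

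**Figure D4:**
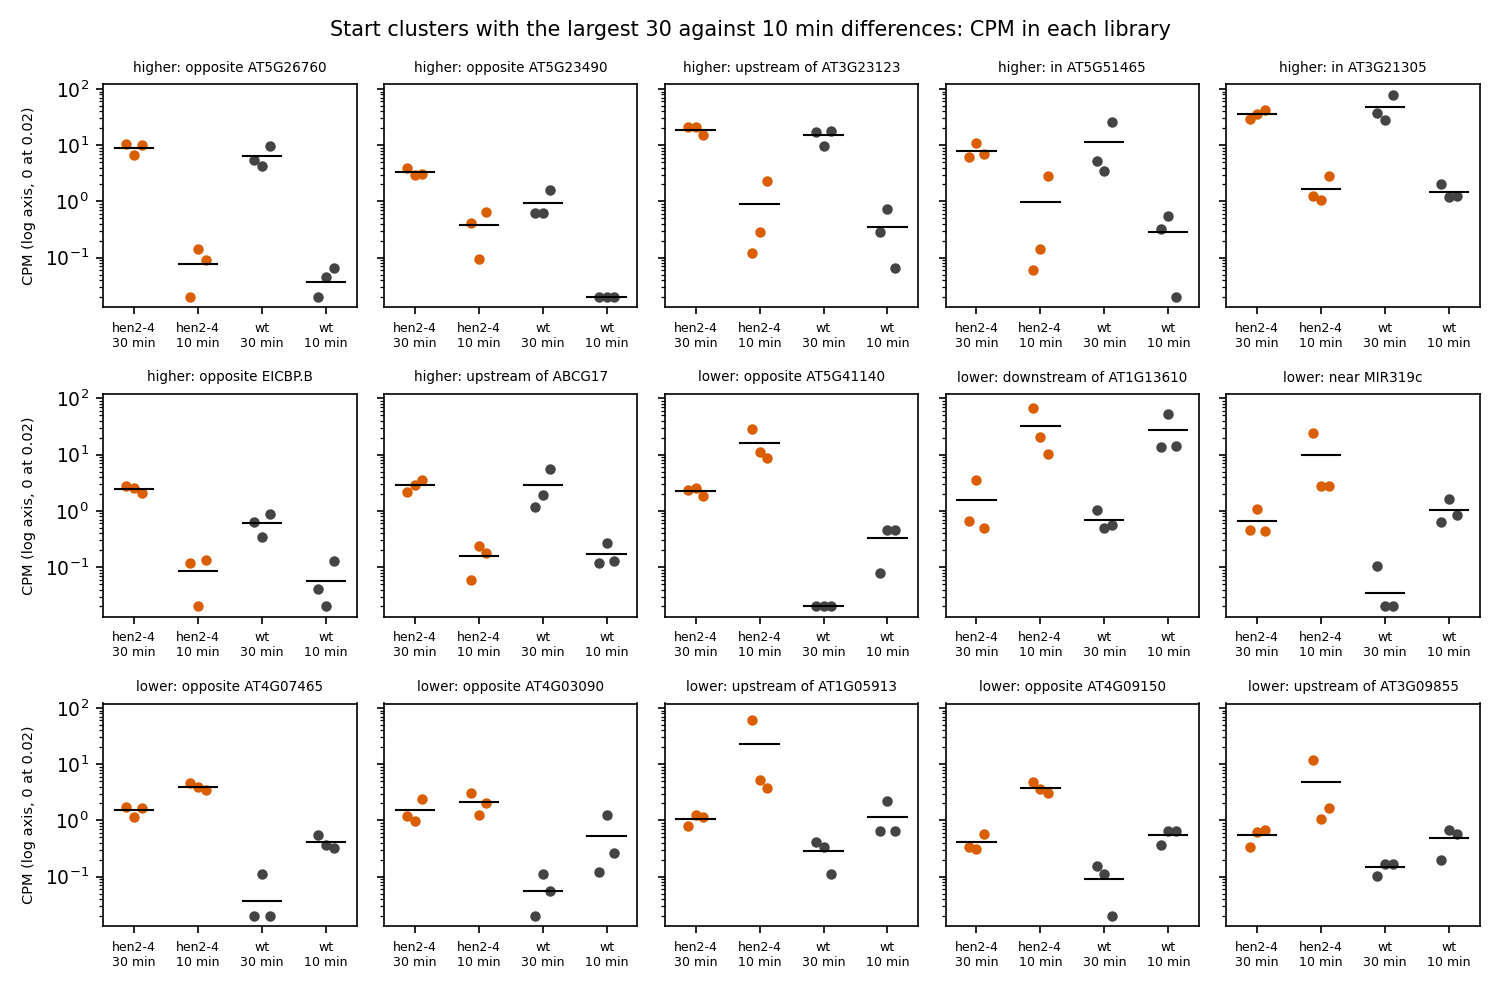
CPM on a log axis in each library (dots, 0 drawn at 0.02) with the group mean (line) for the orphan clusters with the largest differences between 30 and 10 min, rises first and falls after. Groups run hen2-4 30 min, hen2-4 10 min, wt 30 min and wt 10 min. Opposite AT5G26760 the 6 libraries at 30 min are at 4.27 CPM or more and the 6 at 10 min at 0.144 CPM or less.

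1 library stood apart in the orphan clusters. hen2-4 10 min replicate 1 was at least 2-fold above both other libraries of its group, at 2 CPM or more, in 47 clusters, and for the other libraries this count was 2 to 29. Without it, 215 clusters were called higher in hen2-4 at 10 min, and 61 higher and 56 lower in hen2-4 at 30 against 10 min. Where leaving it out removed a single call printed here, this is given beside that call. In wt, the 69 falls with time became 41 without wt 10 min replicate 2 and 40 without wt 30 min replicate 3.

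The highest orphan clusters were in 1 place. Of the 8 with the highest mean CPM, 7 lay in AT3G06365, a miscellaneous RNA at chr3:14200215-14204208 on the + strand beside ribosomal RNA genes, with means of 250 to 1109 CPM. None of the 7 was called in a mutant or time comparison. The highest, at chr3:14201473-14201530, had 966, 920 and 870 CPM in hen2-4 at 10 min, against 921, 876 and 1426 CPM in wt, and the groups overlapped. Ribosomal RNA genes are repeated many times in the genome, and a tag counts when it maps once. Of the 3994 tag starts of 25 bases in AT3G06365, 226 occurred once in the genome. They formed 9 runs, 8 of them exactly 25 starts long, and all 226 lay inside its 8 orphan clusters, which held 234 starts. A run of 25 is the number of 25-base tags that span 1 position. With AT3G06355, 9 orphan clusters lay in this region, 8 of them with no unique start in the 25 bases on either side, and 6 were exactly 25 bp wide. The width of 25 bp occurred in 15 orphan clusters in all and in 84 of 23819 gene clusters. The cluster at chr3:14201036-14201060, shown with 25 bases on each side and the cluster in capitals, had a mean of 93.1 CPM.
in AT3G06365, chr3:14201011-14201085 +: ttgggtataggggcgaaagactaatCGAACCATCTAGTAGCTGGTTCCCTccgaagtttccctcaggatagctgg
The edges of these clusters thus fell where tags stop being unique, and their position cannot be told apart from that of unique sequence. Across all 958, 736 had unique starts throughout both flanks, and 26 had at most 20% unique flank starts, of which 2 were called higher in hen2-4 at 10 min, 3 in hen2-4 at 30 min and 4 in rrp4-2.

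**Figure D5:**
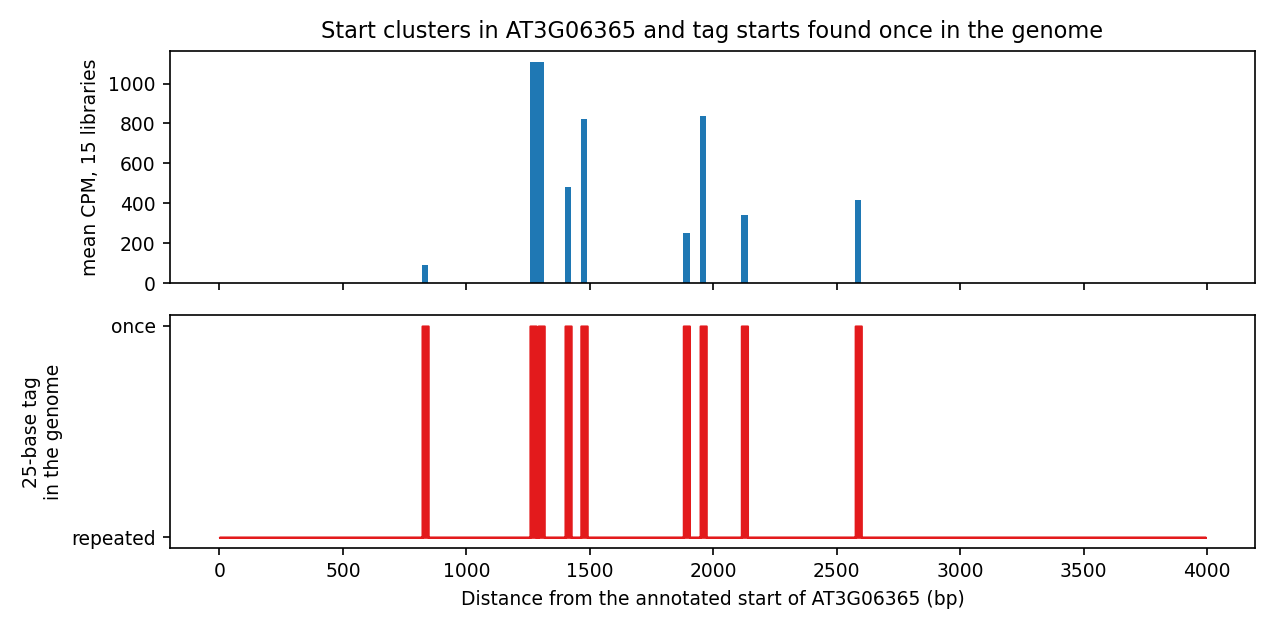
Top, mean CPM over the 15 libraries of the 8 orphan clusters in AT3G06365 against the distance from its annotated start in bp. Bottom, whether the 25-base tag that starts at each position occurs once in the genome. The clusters and the runs of unique tags coincide.

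The sum over all orphan clusters drew a large part from this region. It was 7785 ± 280 CPM in hen2-4 and 7283 ± 1398 CPM in wt at 10 min, and 8629 ± 403 CPM in hen2-4, 9296 ± 1319 CPM in rrp4-2 and 8659 ± 995 CPM in wt at 30 min (SD, n = 3 each). Without the 9 clusters of the region it was 4380 ± 290 CPM in hen2-4 and 3148 ± 154 CPM in wt at 10 min, and 4304 ± 284 CPM in hen2-4, 4704 ± 162 CPM in rrp4-2 and 3368 ± 66.3 CPM in wt at 30 min. All mutant libraries were then at 3980 to 4892 CPM and all wt libraries at 2996 to 3439 CPM. The region was left out after its values were seen. These sums include the clusters that passed through mutant libraries alone. Over the 449 clusters outside the region that reached 1 TPM in 3 wt libraries, the sum was 3546 ± 151 CPM in hen2-4 and 2939 ± 149 CPM in wt at 10 min, and 3676 ± 261 CPM in hen2-4, 4056 ± 80.3 CPM in rrp4-2 and 3174 ± 68.5 CPM in wt at 30 min, and the mutant libraries again did not overlap wt of their time. The only one of the 8 highest clusters outside it, at chr2:4477655-4477898 in AT2G11215, had 496, 565 and 429 CPM in rrp4-2 at 30 min, against 221, 282 and 239 CPM in wt (log2 1.01, SE 0.209, adjusted p 0.00448). Its groups did not overlap, and the call was lost without rrp4-2 replicate 2 or wt 30 min replicate 1 or 3.

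Within the orphan clusters, 12 formed 7 head to head pairs of their own with midpoints within 600 bp. In the pair opposite and in AT4G16957, the + cluster at chr4:9545997-9546007 had 0.998, 0.899 and 0.846 CPM in hen2-4 and 2.29, 1.95 and 1.45 CPM in rrp4-2 at 30 min and no tag in wt, at least 16.6-fold and at least 34.7-fold higher. Its - partner at chr4:9545732-9545771, in an intron 250.5 bp away, had 0.914, 1.27 and 0.338 CPM in rrp4-2, against 0.156, 0.337 and 0.111 CPM in wt (log2 2.04, SE 0.600, adjusted p 0.0405), a call lost on leaving out any of 8 libraries. In the pair near the long noncoding RNAs AT1G06473 and AT1G06483, the - cluster at chr1:11472592-11472656 had 3.44, 3.56 and 2.46 CPM in hen2-4 at 10 min, against 1.48, 1.23 and 1.42 CPM in wt (log2 1.19, adjusted p 0.0128, lost without hen2-4 10 min replicate 1 or 2 or wt 10 min replicate 2), and the + cluster had 0.830, 1.35 and 1.73 CPM, against 0.761, 0.319 and 0.971 CPM (log2 0.96, adjusted p 0.394). The pair at AT2G07638 on chromosome 2, with midpoints 14 bp apart, had no unique 25-base start in its clusters in TAIR10.1.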

How the data were processed

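CAGE tags were counted in 15 libraries of 5 groups. According to the study's methods and the labels' processing notes, the authors aligned the first 25 bases of each tag to TAIR10 with Bowtie 1.1.2, kept tags that mapped once, joined starts at most 20 bp apart into clusters and kept clusters with at least 1 TPM in at least 3 libraries. The deposited counts are raw tags per cluster or per gene, and the deposited TPM values were scaled by the authors to the tags of each library. Columns that matched no labelled sample, 9 in every table, were not used. The counts were tested with edgeR 4.0.16 in R 4.3.3 (low-count filter, TMM, quasi-likelihood fit over the 15 libraries, Benjamini-Hochberg adjustment), and the test was checked on simulated data. DESeq2 1.42.0, limma 3.58.1 (voom, and trend on log2 TPM with pseudocounts of 1 and 0.1), other scalings, filters, distances and libraries were alternatives. Positions, motifs and sequences came from RefSeq TAIR10.1. Replicates were separate wells treated together, so p-values measure the spread between wells.

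The orphan clusters and lists were chosen with earlier results of these data known. Clusters were named by rank: the 8 highest by mean CPM, up to 8 rises and 4 falls per mutant comparison, 5 each way per time comparison (called, groups not overlapping, mean at least 1 CPM), 4 each way between the mutants, small RNA genes, and head to head pairs. Clusters with the U snRNA element, near microRNAs or in the ribosomal RNA region were added after values were seen, as were the alternatives of clusters at 1 TPM in 3 wt libraries (counts and sums), of clusters at a mean of 1 CPM, and of the sum without the ribosomal RNA region. The cluster in AT4G03940 and that opposite AT5G27950 were named after their values were seen.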

Additional observations from a re-analysis of the deposited data

Results flagged for a closer look

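The difference between the mutants at 30 min passed its own test in 2 orphan clusters. At chr1:28515870-28515920, in AT1G75945, the log2 fold change of rrp4-2 over hen2-4 was -5.75 (SE 0.589, edgeR adjusted p 0.000195). It was 0.62 for rrp4-2 over wt (adjusted p 0.676) and 6.38 for hen2-4 over wt (adjusted p 7.23e-06). At chr1:21341898-21341910, near AT1G57620, the log2 fold change of rrp4-2 over hen2-4 was 4.53 (SE 0.723, edgeR adjusted p 0.0252), from 106 pooled tags in rrp4-2 and 4 in hen2-4.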

How the results depend on the processing

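All counts below are orphan clusters called. Over the omissions of single libraries, 195 to 285 were higher and 0 to 1 lower in hen2-4 at 10 min, 195 to 230 higher and 0 to 6 lower in hen2-4 at 30 min, 249 to 294 higher and 4 to 12 lower in rrp4-2, and 0 to 6 higher and 1 to 4 lower in rrp4-2 than in hen2-4. With time, 55 to 94 were higher and 56 to 131 lower in hen2-4, 66 to 81 higher and 40 to 74 lower in wt, and 0 differed between genotypes. The sums ranged over 7681 to 7944 CPM in hen2-4 and 6481 to 7762 CPM in wt at 10 min, and over 8402 to 8786 CPM in hen2-4, 8737 to 10024 CPM in rrp4-2 and 8299 to 9227 CPM in wt at 30 min. Without the ribosomal RNA region they were 4380 CPM in hen2-4 and 3148 CPM in wt at 10 min, and 4304 CPM in hen2-4, 4704 CPM in rrp4-2 and 3368 CPM in wt at 30 min. Over the clusters at 1 TPM in 3 wt libraries they were 6951 CPM in hen2-4 and 7074 CPM in wt at 10 min. At 30 min these were 8000.0 CPM in hen2-4, 8647 CPM in rrp4-2 and 8465 CPM in wt. Without the region as well they were 3546 CPM in hen2-4 and 2939 CPM in wt at 10 min, and 3676 CPM in hen2-4, 4056 CPM in rrp4-2 and 3174 CPM in wt at 30 min.

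With limma-trend on log2(TPM + 1), 122 were higher and 0 lower in hen2-4 at 30 min, 167 higher and 1 lower in rrp4-2, 4 higher and 2 lower in rrp4-2 than in hen2-4, 33 higher with time in hen2-4, 30 higher and 31 lower with time in wt, and 1 differed in its time change. With a pseudocount of 0.1, 1 was lower in hen2-4 at 30 min, 4 lower in rrp4-2, 3 higher in rrp4-2 than in hen2-4, and 183 in hen2-4 and 126 in wt lower with time. With library totals alone, 1 was lower in hen2-4 at 30 min, 4 lower in rrp4-2, 178 in hen2-4 and 116 in wt lower with time, and the sums were 8855 CPM in hen2-4 at 10 min and 8120 CPM at 30 min. With limma voom, 1 was lower in hen2-4 at 30 min, 5 lower in rrp4-2, and 7 higher and 2 lower in rrp4-2 than in hen2-4. With DESeq2, 11 were higher and 5 lower between the mutants. With the groups compared fitted alone, 1 was lower in hen2-4 at each time, 2 lower in rrp4-2, 10 higher and 8 lower between the mutants, and 50 higher and 32 lower with time in wt. Without a fold limit, 2 were lower in hen2-4 at 10 min, 6 at 30 min, and 2 higher between the mutants. Between the mutants, 2 were higher with a pointing distance of 2000 bp and 0 lower with a head to head distance of 1000 bp. A pointing distance of 5000 bp left 1 lower in hen2-4 at 30 min, and a head to head distance of 400 bp gave 1 that differed in its time change.

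Of the clusters at 1 TPM in 3 wt libraries, 44 were higher in hen2-4 at each time, 65 in rrp4-2, 0 either way between the mutants, 40 higher and 45 lower with time in hen2-4, and 50 higher and 35 lower in wt. At a mean of at least 1 CPM, 137 were higher in hen2-4 at 10 min, 131 in hen2-4 at 30 min and 160 in rrp4-2, 0 higher between the mutants, and 47 higher and 66 lower with time in hen2-4. To look for pairing, the deviations of each library from its group mean in log2 CPM were correlated between libraries of different groups. These correlations of deviations were -0.344 to 0.311 for same-numbered libraries and -0.374 to 0.300 for others, which gave no sign that the numbers pair them. With the replicate block, 244, 219 and 283 were higher in the mutant comparisons and 2 lower between the mutants. Of 156 calls of named clusters, 90 held under every alternative run and 66 were lost under at least 1, with 0 reversed. Of clusters called higher, 75 in hen2-4 at 10 min, 97 in hen2-4 at 30 min and 108 in rrp4-2 had few wt tags. Each wt library of the same time then held at most 3 tags of the cluster, where depth limits the size of a fold.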
